A study of Rattus norvegicus with 28 samples.

Results

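Microglia and astrocytes from newborn rat cortex were compared in their transcriptional response to lipopolysaccharide (LPS), a component of the outer membrane of Gram-negative bacteria. Of the 28 libraries of the series, the 14 labelled LPS or H2O were used: 3 of LPS-treated microglia, 3 of H2O-treated microglia, 4 of LPS-treated astrocytes and 4 of H2O-treated astrocytes. Both cell types came from Wistar rats at postnatal day 1 and had spent 10 days in flasks. Microglia were shaken off, collected after 2 and 24 h and enriched with CD11b/c magnetic beads. LPS was given at 100 ng/ml in medium with 10% FCS, to microglia 1 day and to astrocytes 3 days after isolation, so days in culture and cell type changed together. How long LPS was applied is not stated. Since no label ties replicates to separate animals or cultures, p-values rest on the spread among libraries, and that spread may be technical.

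LPS is sensed by the receptor TLR4, to which CD14 and MD-2 (gene Ly96) deliver it. One branch of signalling runs through the adaptor MyD88 to NF-kB, which switches on cytokine and chemokine genes and also the genes of its own inhibitors. Another branch runs through the adaptor TRIF to interferon regulatory factors and type I interferon, which in turn switches on interferon-stimulated genes. Microglia are the resident macrophages of the brain, whereas astrocytes are neural support cells that take up glutamate and potassium and become reactive during inflammation.

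The response is the log2 change of LPS over H2O within a cell type, and the response difference is the microglial response minus the astrocyte response, so that a positive difference means a higher response in microglia. Genes were joined by symbol: 15246 symbols stood in both sets of tables and 13280 passed the filter on low counts. The filter and the fit were applied to all 14 libraries together, with calls made below an adjusted p of 0.05. In that fit all groups shared a common spread per gene, and replicate numbers were not used. Microglial libraries held between 38080379 and 42724111 counts, and those of astrocytes between 23742228 and 29867271. Expression is given in CPM, that is, counts per 1000000 in the library. At a limit of 3 counts, a gene without a count could lie as high as 0.0702 to 0.126 CPM. CPM were scaled to tables that list different genes in each cell type, so levels in microglia and astrocytes are set side by side without a test. The median response of all genes tested was -0.09 in microglia and 0.02 in astrocytes, and the median difference was -0.12, relative to which differences are to be read. CPM are given per library total, whereas log2 changes also carry the TMM factors, which were 0.672 to 0.743 in LPS microglia, 0.840 to 0.874 in H2O microglia and 1.187 to 1.258 in astrocytes.

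Some libraries stood apart. The first principal component of log2 CPM (82.85% of the variance) parted the cell types and the second (6.57%) parted LPS from H2O. Replicate 3 of microglia lay apart from replicates 1 and 2 in both treatments, and astrocyte replicates 1 and 2 parted from replicates 3 and 4 on the third component (3.059%). The 17 markers of microglia and macrophages summed to 8496 to 13578 CPM in LPS microglia and 14417 to 16218 CPM in H2O microglia. The same 17 markers summed to 204, 176, 410 and 581 CPM in LPS astrocytes, against 430, 379, 693 and 1025 CPM in H2O astrocytes (exact permutation test, two-sided, p = 0.1429). That test did not use the replicate numbers, and each LPS library lay below the H2O library of its number. None of the 17 had a group mean of 0 in astrocytes, so transcripts of these markers were present in astrocyte libraries, at 2.98% of the microglial level with LPS and 4.14% with H2O. Markers of astrocytes (16 of 16 listed) summed to 26.1 to 50.5 CPM in LPS microglia and 65.1 to 301 CPM in H2O microglia, against 3426 to 9613 CPM in LPS astrocytes and 7065 to 14681 CPM in H2O astrocytes. Markers of fibroblasts and mural cells (13 of 14 listed) summed to 2100 to 4086 CPM in LPS astrocytes and 3472 to 11907 CPM in H2O astrocytes. In these bulk libraries, fewer cells of a type and less RNA per cell cannot be told apart.

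The response to LPS differed between microglia and astrocytes in 1655 of 13280 genes (12.5%). It was higher in microglia for 707 genes (5.32%) and lower for 948 (7.14%). With another scaling (RLE, the median ratio of DESeq2) the split was 912 higher and 759 lower, and with the replicate number of each cell type as a block 3029 genes were called, 1210 higher and 1819 lower. Microglia changed in 4000 genes (30.1%), of which 1871 rose (14.1%) and 2129 fell (16%). Astrocytes changed in 455 genes (3.43%), of which 322 rose (2.42%) and 133 fell (1%); with the replicate block the astrocyte count was 1459, with 666 higher and 793 lower. Most genes that rose in astrocytes also rose in microglia: 218 genes rose in both, which was 67.7% of those that rose in astrocytes and 11.65% of those that rose in microglia. In the other direction 43 genes fell in both, 32.33% of those that fell in astrocytes and 2.02% of those that fell in microglia. The difference in numbers of calls is not itself a test, since the microglial groups had fewer libraries but more counts. All groups also shared a common spread per gene, and the astrocyte count was 956 without both microglial replicate 3 libraries.

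By direction, the 1655 genes fell into a few patterns. In 609 genes the microglial level rose, the astrocyte change was not called and the difference was positive, and in 866 the microglial level fell, the astrocyte change was not called and the difference was negative. Among the 218 genes that rose in both cell types, the difference was called in 55 with the larger response in microglia, in 1 with the larger response in astrocytes, and not called in 162. Opposite directions were called in 16 genes, 5 that rose in microglia and fell in astrocytes and 11 that fell in microglia and rose in astrocytes. A rise in astrocytes with no called change in microglia and a negative difference was seen in 30 genes. Limiting the count to 8294 genes with at least 5 CPM in the H2O libraries of both cell types left 524 genes with a higher response in microglia (6.32%) and 734 with a lower one (8.85%). Of these 8294 genes, 1447 rose (17.4%) and 1527 fell (18.4%) in microglia, and 211 rose (2.54%) and 43 fell (0.518%) in astrocytes.

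**Figure D1:**
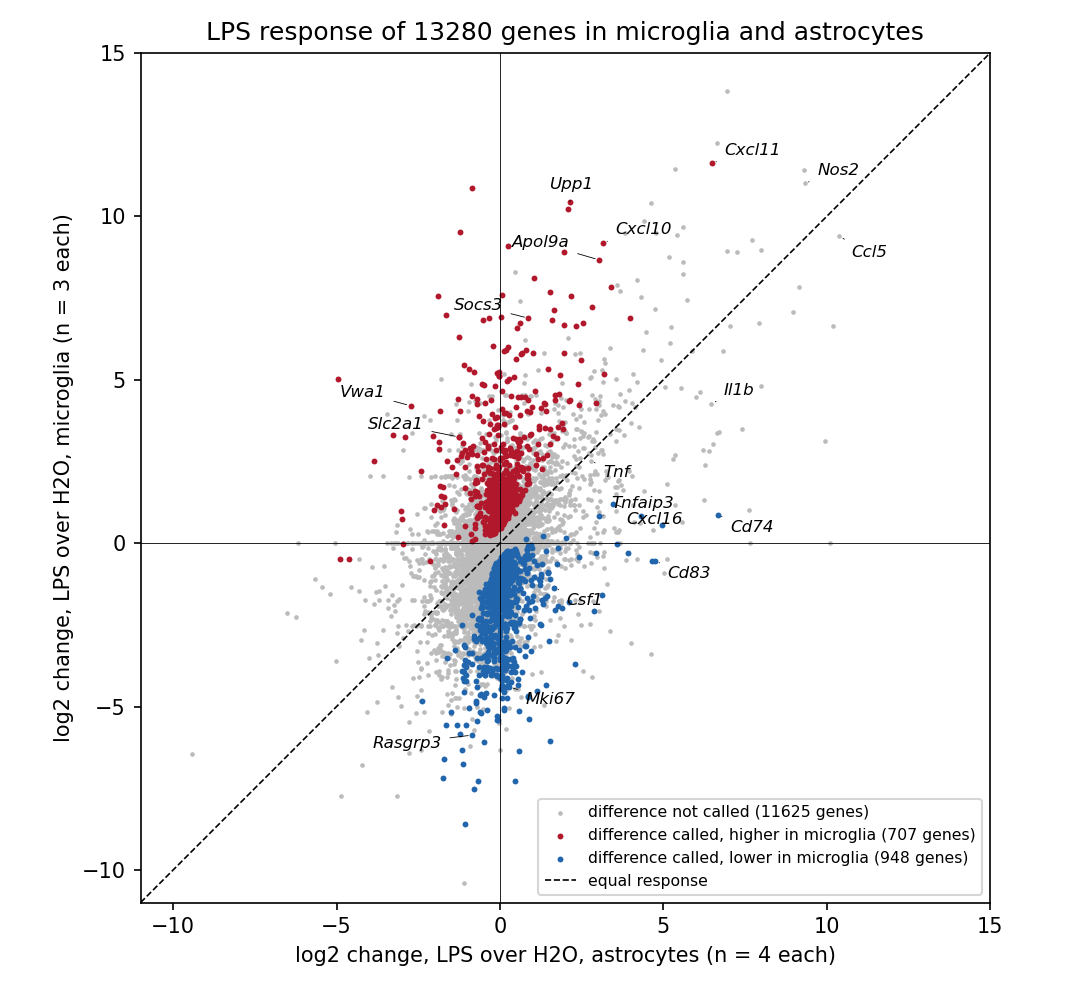
Log2 change of LPS over H2O in astrocytes (x axis, 4 libraries a group) and microglia (y axis, 3 libraries a group) for the 13280 genes tested; red points have a called response difference that is higher in microglia (707 genes), blue points one that is lower (948 genes), and the dashed line marks equal responses. Called genes lie mainly along the vertical axis, where microglia changed and astrocytes did not pass the test, while Ccl5, Nos2 and Tnf lie near the dashed line.

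Among the 55 genes that rose in both cell types with a called difference and the larger response in microglia, Cxcl10, Apol9a, Cxcl11, Cmpk2, Rsad2 and Tmprss2 had the largest differences. Lcn2 and Il6, described below, also rose in both, with differences in this range that were not called. Cxcl10, a chemokine that draws T cells through the receptor CXCR3, had 1661, 1396 and 1249 CPM in LPS microglia, against 2.35, 4.38 and 2.13 CPM in H2O microglia. Cxcl10 had 185, 265, 106 and 68.2 CPM in LPS astrocytes, against 11.3, 9.87, 12.5 and 37.4 CPM in H2O astrocytes. All LPS libraries lay above all H2O libraries in both cell types, with the highest H2O level in astrocyte replicate 4. Genes named by class had to have groups that do not overlap, so this order is no separate evidence. The log2 response was 9.20 ± 0.78 (SE) in microglia and 3.16 ± 0.51 in astrocytes, a difference of 6.04 ± 0.79 (adjusted p = 0.00083). Leaving out any 1 of the 14 libraries kept the call, with differences from 5.41 to 6.52.

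Rsad2, which encodes the antiviral enzyme viperin, followed the same order. It had 1354, 716 and 480.2 CPM in LPS microglia, against 2.50, 5.06 and 5.90 CPM in H2O microglia, and 90.6, 74.5, 181 and 64.2 CPM in LPS astrocytes, against 4.81, 4.80, 13.3 and 17.0 CPM in H2O astrocytes. Its response difference was 4.45 ± 0.80 (adjusted p = 0.0045). Cmpk2, a nucleotide kinase gene that neighbours Rsad2 in the genome, had 1017, 615 and 318 CPM in LPS microglia, against 4.89, 6.51 and 11.7 CPM in H2O microglia. It had 112, 117, 181 and 71.5 CPM in LPS astrocytes, against 33.8, 29.3, 34.5 and 28.3 CPM in H2O astrocytes. Cmpk2 rose by 6.68 ± 0.54 on the log2 scale in microglia and 1.95 ± 0.38 in astrocytes, and the difference was 4.73 ± 0.58 (adjusted p = 0.00058). Cxcl11, another CXCR3 ligand, reached 226, 85.5 and 154 CPM in LPS microglia, against 0.0252, 0.0969 and 0.0468 CPM in H2O microglia, and 50.5, 71.1, 73.7 and 82.3 CPM in LPS astrocytes, against 0.386, 0.484, 0.517 and 1.78 CPM in H2O astrocytes; its difference was 5.14 ± 0.86 (adjusted p = 0.0029). Apol9a, an interferon-inducible apolipoprotein L gene, ended at similar CPM per library total in both cell types from different baselines. It had 47.2, 36.6 and 31.7 CPM in LPS microglia, against 0, 0.0726 and 0.257 CPM in H2O microglia, and 30.0, 40.7, 70.9 and 36.0 CPM in LPS astrocytes, against 5.79, 5.25, 5.96 and 4.84 CPM in H2O astrocytes. The Apol9a difference of 5.63 ± 0.74 (adjusted p = 0.00086) therefore stood beside microglial H2O levels at or near the floor of a count of 0. Tmprss2, a membrane serine protease gene, differed by 4.42 ± 1.13 (adjusted p = 0.026), a call that was lost without LPS microglia replicate 1, H2O microglia replicate 1 or H2O microglia replicate 2, with adjusted p up to 0.069.

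Cxcl16 was the 1 gene that rose in both cell types with a called difference and the larger response in astrocytes. Others such as Il1b, Nfkbia and Ccl5, described below, had the same order, with differences that were not called. Cxcl16 encodes a membrane-bound chemokine and scavenger receptor whose receptor is CXCR6. Its level was 513, 399 and 349 CPM in LPS microglia, against 203, 199 and 260.4 CPM in H2O microglia, and 518, 584, 608 and 942 CPM in LPS astrocytes, against 41.9, 48.7, 53.3 and 99.3 CPM in H2O astrocytes. Per library total, every LPS astrocyte library lay above every LPS microglia library, the closest at 518 and 513 CPM. Every H2O astrocyte library lay below every H2O microglia library. These CPM leave out the TMM factors, which were lower in microglia than in astrocytes, so the order with LPS need not hold on the scale of the fit. The response was 1.21 ± 0.31 in microglia and 3.47 ± 0.30 in astrocytes, and the difference was -2.26 ± 0.41 (adjusted p = 0.0049), called without each of the 14 libraries in turn.

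Promoters are shown for Cxcl10, Apol9a and Rsad2, as genes that rose in both cell types and more in microglia, and for Cxcl16, as the gene with the opposite order and a called difference. They are also shown for Vwa1 and St6gal1, the first-ranked genes of opposite direction described below. Each is the RefSeq promoter on the assembly GRCr8, 250 bases before to 50 after the gene's start, in the direction of transcription. Capitals mark matches, on either strand, to a form of the interferon-stimulated response element (GAAA at both ends, with any 2 bases N between) or to a broad form of the NF-kB site (GGG, any 5 bases N, then CC); these letters can overlap each other and other motifs. Cxcl10 lies at chr14:15988816-15989115 (plus strand), Apol9a at chr7:111028164-111028463 (minus strand), Rsad2 at chr6:48788071-48788370 (minus strand), Cxcl16 at chr10:55669901-55670200 (minus strand), Vwa1 at chr5:171664831-171665130 (minus strand) and St6gal1 at chr11:91040355-91040654 (minus strand).
Cxcl10: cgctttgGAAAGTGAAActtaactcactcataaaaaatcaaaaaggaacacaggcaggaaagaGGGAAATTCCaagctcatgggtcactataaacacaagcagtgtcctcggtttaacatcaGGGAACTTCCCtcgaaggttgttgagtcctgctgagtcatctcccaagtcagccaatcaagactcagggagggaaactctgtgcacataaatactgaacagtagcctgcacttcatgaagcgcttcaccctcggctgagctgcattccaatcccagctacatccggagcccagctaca
Apol9a: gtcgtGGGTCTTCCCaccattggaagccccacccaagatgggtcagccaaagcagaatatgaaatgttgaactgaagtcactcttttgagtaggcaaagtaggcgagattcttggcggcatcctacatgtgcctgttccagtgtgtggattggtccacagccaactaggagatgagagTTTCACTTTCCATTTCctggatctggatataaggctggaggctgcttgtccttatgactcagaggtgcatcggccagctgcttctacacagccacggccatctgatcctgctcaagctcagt
Rsad2: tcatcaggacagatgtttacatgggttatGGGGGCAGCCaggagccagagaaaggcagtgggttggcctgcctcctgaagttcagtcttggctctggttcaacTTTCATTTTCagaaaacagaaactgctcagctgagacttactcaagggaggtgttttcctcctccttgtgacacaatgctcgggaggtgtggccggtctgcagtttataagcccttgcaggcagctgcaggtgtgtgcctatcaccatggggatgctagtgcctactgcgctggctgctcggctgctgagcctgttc
Cxcl16: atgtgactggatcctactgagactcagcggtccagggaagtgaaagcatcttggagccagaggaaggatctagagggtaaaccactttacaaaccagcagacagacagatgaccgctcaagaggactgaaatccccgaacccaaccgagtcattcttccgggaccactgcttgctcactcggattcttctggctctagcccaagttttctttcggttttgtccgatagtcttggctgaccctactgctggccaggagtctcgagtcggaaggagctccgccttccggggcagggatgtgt
Vwa1: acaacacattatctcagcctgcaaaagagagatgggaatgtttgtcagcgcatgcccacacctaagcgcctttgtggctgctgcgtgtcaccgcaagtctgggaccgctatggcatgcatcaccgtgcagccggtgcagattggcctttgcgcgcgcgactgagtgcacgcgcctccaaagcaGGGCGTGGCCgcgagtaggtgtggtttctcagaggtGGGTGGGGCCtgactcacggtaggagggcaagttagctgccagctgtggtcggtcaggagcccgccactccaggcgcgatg
St6gal1: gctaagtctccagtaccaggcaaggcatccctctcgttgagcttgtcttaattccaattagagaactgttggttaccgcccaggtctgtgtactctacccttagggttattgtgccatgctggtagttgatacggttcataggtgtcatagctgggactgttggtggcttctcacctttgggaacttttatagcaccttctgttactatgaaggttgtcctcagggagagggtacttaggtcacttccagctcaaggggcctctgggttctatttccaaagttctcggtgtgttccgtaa
The Cxcl10 promoter held 1 match to the interferon form and 3 to the NF-kB form, the Apol9a promoter 2 of each, counting overlapping or reverse matches separately, and the Rsad2 promoter 1 of each. The Vwa1 promoter held 2 NF-kB matches and no interferon match, and no match of either form stood in the Cxcl16 or St6gal1 window. A match is a description of letters in this window, not a binding site.

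Over gene groups, the interferon form was present in 2.89% of the 10656 promoters of tested genes. It stood in 18 of the 45 promoters (40.0%) of genes that rose in both cell types with the larger response in microglia, and in 25 of 124 (20.2%) of those that rose in both with no called difference. Among genes that rose in microglia with no called change in astrocytes and a positive difference, 20 of 507 promoters (3.94%) held it. It stood in 0 of 23 promoters of genes that rose in astrocytes with no called change in microglia and a negative difference. The NF-kB form stood in 66.1% of all promoters, in 75.6% of the promoters of genes that rose in both with the larger response in microglia and in 87.0% of the promoters (20 of 23) of genes that rose in astrocytes and were not called in microglia. No test was run on these shares.

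For each gene list below, the shares over all genes tested were 14.1% up and 16% down in microglia. They were 2.42% up and 1% down in astrocytes, with 5.32% of differences higher in microglia and 7.14% lower. These shares are from the fit without the replicate block. With the block more of the 13280 genes were called: 2450 rose and 3217 fell in microglia, and 666 rose and 793 fell in astrocytes. The blocked difference was higher in 1210 genes and lower in 1819. List counts with the block are to be read beside these larger numbers. Interferon-stimulated antiviral genes rose in both cell types in most members. Of 37 members tested, 35 rose and 1 fell in microglia and 31 rose in astrocytes; the response difference was higher in microglia in 18 members and lower in 1 (with the replicate block, 2 fell in microglia and 2 differences lower). The median member response was 3.29 in microglia and 1.95 in astrocytes, with a median difference of 1.29 against -0.12 over all genes. With astrocyte replicates 3 and 4 alone the 18 became 10. Summed over the list, the level was 22297, 18374 and 13279 CPM in LPS microglia, against 1506, 1404 and 1723 CPM in H2O microglia. In LPS astrocytes it was 4661, 5124, 11024 and 7464 CPM, against 1613, 1528, 1927 and 2139 CPM in H2O astrocytes. H2O levels were close in both cell types, and LPS microglia lay above all LPS astrocyte libraries. Oas3, an oligoadenylate synthetase of the RNA-degrading antiviral system, had 54.9, 58.1 and 38.0 CPM in LPS microglia, against 0.782, 0.920 and 1.54 CPM in H2O microglia, and 0.0421, 0.190, 0.301 and 0.245 CPM in LPS astrocytes, against 0, 0.112, 0.159 and 0.124 CPM in H2O astrocytes. Its difference was 4.79 ± 0.88 (adjusted p = 0.0051), with astrocyte levels near the floor. Usp18, which restrains interferon receptor signalling, had a response of 6.66 ± 0.34 in microglia and 2.34 ± 0.24 in astrocytes. Oas2, another synthetase, changed by 2.86 ± 0.57 in microglia and 3.14 ± 0.53 in astrocytes, and its difference of -0.27 ± 0.72 (adjusted p = 0.86) was not called. The member that differed the other way was Ifitm1, which restricts viral entry. It had 1.52, 1.33 and 0.105 CPM in LPS microglia, against 56.1, 19.95 and 16.1 CPM in H2O microglia. The astrocyte levels were 0.842, 1.41, 9.88 and 17.0 CPM in LPS astrocytes, against 1.33, 3.43, 7.07 and 4.64 CPM in H2O astrocytes, with a difference of -5.56 ± 1.51 (adjusted p = 0.033); that call was kept only without H2O microglia replicate 2 or 3 or LPS astrocytes replicate 1 or 2, and lost without each of the other 10 libraries.

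Regulators of the interferon response moved unevenly. Among 25 interferon receptors, STATs and IRFs, 8 rose and 2 fell in microglia and 8 rose in astrocytes. The difference was higher in 2 and lower in 3, against 5.32% and 7.14% of all genes tested (with the replicate block, 4 fell in microglia, 1 fell in astrocytes and 5 differences lower). Irf7, the transcription factor that amplifies type I interferon, had 3585, 2849 and 2483 CPM in LPS microglia, against 52.3, 36.1 and 94.0 CPM in H2O microglia, and 312, 502, 1144 and 731 CPM in LPS astrocytes, against 27.4, 29.7, 39.3 and 35.4 CPM in H2O astrocytes; its difference was 1.53 ± 0.57 (adjusted p = 0.10, and 0.024 with the replicate block), and 0.033 was the adjusted p without LPS astrocytes replicate 3. The 2 with a higher response in microglia were Socs1 and Socs3. Socs1, a feedback inhibitor of interferon signalling, differed by 2.37 ± 0.60 (adjusted p = 0.026), lost without H2O microglia replicate 1 or LPS astrocytes replicate 1 (adjusted p up to 0.056). Its astrocyte change was 1.20 ± 0.39 (adjusted p = 0.13, and 0.042 with the replicate block). Socs3, a feedback inhibitor of STAT3 signalling, had 155, 127 and 444 CPM in LPS microglia, against 1.92, 1.94 and 3.77 CPM in H2O microglia, and 62.4, 51.9, 176 and 223 CPM in LPS astrocytes, against 44.3, 42.3, 101 and 99.1 CPM in H2O astrocytes. The LPS and H2O ranges did not overlap in microglia and did in astrocytes, where Socs3 was already high without LPS. The response was 6.88 ± 0.84 in microglia and 0.87 ± 0.56 (adjusted p = 0.50) in astrocytes, a difference of 6.01 ± 0.93 (adjusted p = 0.0020). Irf4, a factor of alternative macrophage activation, fell in microglia and had 0.431, 0.627 and 0.630 CPM in LPS microglia, against 22.2, 33.7 and 15.1 CPM in H2O microglia. It stood at 0.168, 0.190, 0.0670 and 0 CPM in LPS astrocytes, against 0, 0.0372, 0.199 and 0.166 CPM in H2O astrocytes, with a difference of -5.24 ± 1.13 (adjusted p = 0.012). Those astrocyte levels were near the floor, at 5 counts or fewer in each library. The Irf4 difference was -8.01 (adjusted p = 0.0049) with astrocyte replicates 1 and 2 alone and -2.92 (adjusted p = 0.22) with replicates 3 and 4 alone. Socs2, which restrains growth hormone signalling, differed by -2.70 ± 0.71 (adjusted p = 0.029), a call lost without each of 7 libraries in turn. Irf1 had responses of 0.79 ± 0.38 (adjusted p = 0.14) in microglia and 1.66 ± 0.34 in astrocytes, and a difference of -0.86 ± 0.51 (adjusted p = 0.30). Ifnb1, the interferon beta gene, was listed in both tables and did not pass the count filter.

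Genes of MHC class I loading and the immunoproteasome rose in both cell types, 15 of 15 in microglia and 10 of 15 in astrocytes. The difference was higher in microglia in 2, Tap1 and Nlrc5 (with the replicate block, 4 differences higher). Nlrc5, the transactivator of MHC class I genes, differed by 2.23 ± 0.57 (adjusted p = 0.025), a call lost without each of 6 libraries in turn. Tap1, which pumps peptides to MHC class I, had 366, 337 and 332 CPM in LPS microglia, against 45.6, 66.8 and 38.9 CPM in H2O microglia. Its levels were 111, 133, 187 and 131 CPM in LPS astrocytes, against 43.6, 46.1, 51.9 and 57.0 CPM in H2O astrocytes, with a difference of 1.53 ± 0.30 (adjusted p = 0.0070). The immunoproteasome activator Psme1 changed by 0.94 ± 0.19 in microglia and 0.86 ± 0.16 in astrocytes, a difference of 0.09 ± 0.24 (adjusted p = 0.87). Interferon-inducible GTPases rose in 6 of 7 members in microglia and 7 of 7 in astrocytes. Gbp2 of that group had 567, 539 and 465 CPM in LPS microglia, against 30.6, 40.6 and 25.1 CPM in H2O microglia, and 2773, 2726, 3327 and 3439 CPM in LPS astrocytes, against 474, 289, 249.4 and 602 CPM in H2O astrocytes. Its difference of 1.35 ± 0.39 (adjusted p = 0.042) was called without 4 of the 14 libraries in turn and lost without each of the other 10.

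Of 14 MHC class II and co-stimulation genes, 3 rose in microglia and 8 in astrocytes, against 14.1% and 2.42% of all genes tested. The summed CPM of this list in astrocytes was lower with LPS in replicates 1 and 2 and higher in replicates 3 and 4. In microglia 0 differences were higher and 1 lower, near the 7.14% lower over all genes (with the replicate block, 7 rose in microglia, 1 fell in astrocytes and 2 differences higher). The lower member was Cd74, the invariant chain that guides class II molecules. Cd74 had 4.38, 3.11 and 8.61 CPM in LPS microglia, against 2.35, 5.08 and 3.46 CPM in H2O microglia, and 4.38, 10.5, 202 and 332 CPM in LPS astrocytes, against 0.491, 1.27, 1.63 and 2.19 CPM in H2O astrocytes. The LPS level was highest in astrocyte replicates 3 and 4. Its difference was -5.80 ± 1.67 (adjusted p = 0.041), kept only without LPS astrocytes replicate 1 or 2, and -2.11 (adjusted p = 0.17) with astrocyte replicates 1 and 2 alone. Replicates 3 and 4 of astrocytes also had the higher summed microglial markers, 410 and 581 CPM with LPS and 693 and 1025 CPM with H2O; their part in the result was not tested. The LPS astrocyte level of Cd74 was 2554% of the LPS microglial level, against 2.98% for the summed markers.

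**Figure D2:**
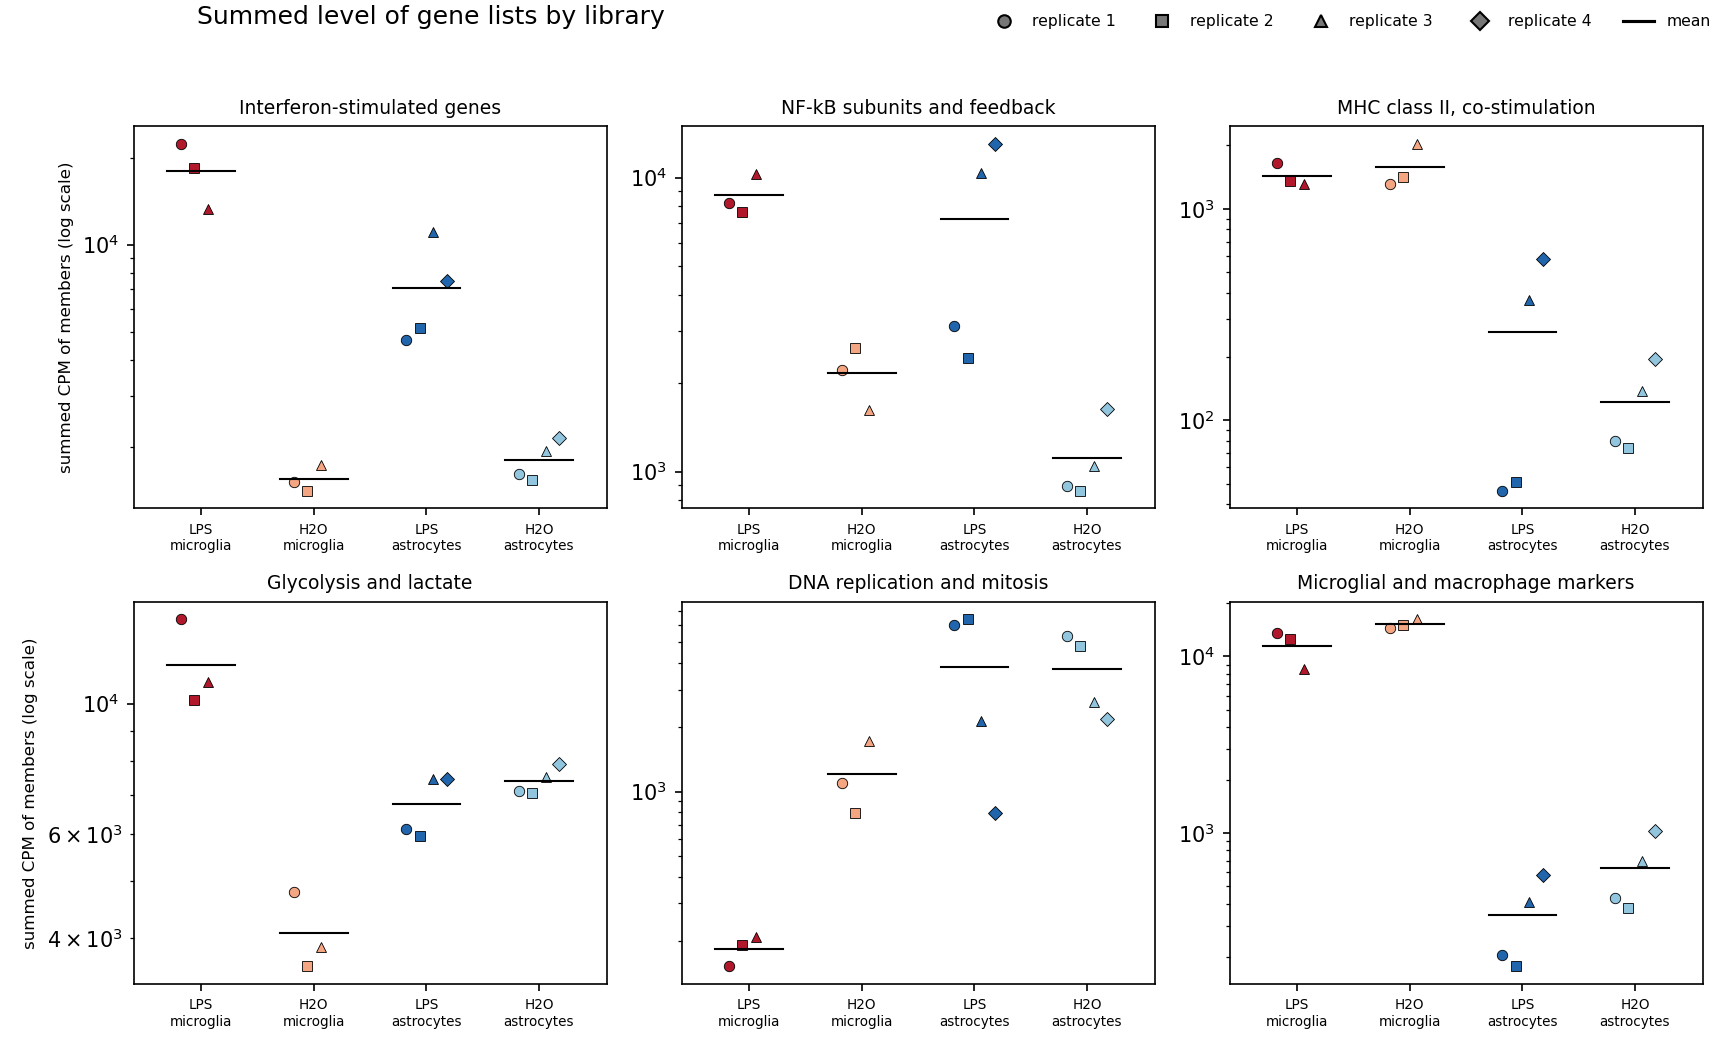
Summed CPM (log scale) of 5 gene lists and of the microglial and macrophage markers in each library; symbols mark replicate numbers, colours the 4 groups and bars the group means. Interferon-stimulated genes were highest in LPS microglia, the summed NF-kB list reached 10399 and 13031 CPM in astrocyte replicates 3 and 4, against 3122 and 2427 CPM in replicates 1 and 2, and DNA replication genes fell to 152 to 207 CPM in LPS microglia.

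Of 19 genes of TLR4, its co-receptors and adaptors, 6 rose in microglia and 2 in astrocytes, and the difference was higher in 2 and lower in 1, against 5.32% and 7.14% of all genes tested (with the replicate block, 1 fell in microglia). Tlr4 had 35.7, 42.2 and 17.1 CPM in LPS microglia, against 83.6, 91.4 and 82.4 CPM in H2O microglia, and 1.14, 1.14, 2.61 and 4.00 CPM in LPS astrocytes, against 3.79, 2.08, 3.58 and 6.38 CPM in H2O astrocytes. Its responses were -1.18 ± 0.48 (adjusted p = 0.085, and 0.0058 with the replicate block) in microglia and -0.80 ± 0.44 (adjusted p = 0.41) in astrocytes, and the difference of -0.38 ± 0.65 (adjusted p = 0.76) was not called. The LPS astrocyte levels of Tlr4, Cd14 and Ly96 were 7.01%, 3.99% and 6.22% of the LPS microglial levels, beside 2.98% for the summed microglial markers. The part of microglial RNA in these 3 genes was not tested. Cd14 had 1287, 934 and 1663 CPM in LPS microglia, against 428, 245 and 352 CPM in H2O microglia. For astrocytes the values were 28.8, 21.6, 54.7 and 102 CPM in LPS astrocytes, against 15.1, 12.9, 18.6 and 32.9 CPM in H2O astrocytes, with a difference of 0.81 ± 0.70 (adjusted p = 0.51) and an astrocyte change of 1.41 ± 0.47 (adjusted p = 0.14, and 0.0091 with the replicate block). Ly96, whose product MD-2 binds LPS, was called higher with LPS in astrocyte libraries and was not called in microglia. It had 81.7, 80.6 and 61.0 CPM in LPS microglia, against 94.3, 85.6 and 101 CPM in H2O microglia, and 3.75, 3.73, 5.83 and 5.22 CPM in LPS astrocytes, against 2.24, 2.05, 2.74 and 2.61 CPM in H2O astrocytes; the difference was -1.02 ± 0.25 (adjusted p = 0.022), and was lost without H2O astrocytes replicate 3 (-1.01, adjusted p = 0.068) and with RLE scaling (-0.92, adjusted p = 0.051). Tirap and Tbk1, an adaptor of TLR4 and a kinase that activates IRF3, were higher in microglia by 0.90 ± 0.27 (adjusted p = 0.048) and 0.49 ± 0.14 (adjusted p = 0.038), and these calls were kept without 3 and 4 of the 14 libraries and lost without each of the others.

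Of 25 NF-kB subunits and feedback inhibitors, 12 rose in microglia and 18 in astrocytes. The difference was higher in microglia in 0 and lower in 3 (with the replicate block, 5 differences lower), and the median member response was 1.35 in microglia and 2.03 in astrocytes. The 3 were Tnfaip3, Relb and Rela. Tnfaip3 encodes A20, which shuts off NF-kB signalling. It had 133, 84.6 and 128 CPM in LPS microglia, against 75.1, 110.2 and 53.0 CPM in H2O microglia, and 165, 130.4, 319.9 and 533 CPM in LPS astrocytes, against 29.7, 37.3, 31.2 and 45.0 CPM in H2O astrocytes. The microglial groups overlapped, and every LPS astrocyte library lay above every H2O astrocyte library. The difference was -2.21 ± 0.63 (adjusted p = 0.038); it was kept without H2O microglia replicate 3 or LPS astrocytes replicate 1, 2 or 4, and lost without each of the other 10 libraries (adjusted p up to 0.093). Relb, the partner subunit of the alternative NF-kB pathway, had 63.2, 43.8 and 40.9 CPM in LPS microglia, against 51.7, 69.7 and 39.2 CPM in H2O microglia. It stood at 62.9, 57.0, 100.1 and 106 CPM in LPS astrocytes, against 13.7, 11.8, 23.2 and 32.6 CPM in H2O astrocytes, and its difference was -1.87 ± 0.51 (adjusted p = 0.034). That call held without 5 of the 14 libraries in turn and was lost without the other 9. Nfkbia, the inhibitor IkB-alpha, rose in both cell types, by 1.96 ± 0.55 and 2.76 ± 0.49, with a difference of -0.79 ± 0.70 (adjusted p = 0.52). Sod2, a mitochondrial superoxide dismutase and NF-kB target, had 4937, 4672 and 5115 CPM in LPS microglia, against 578, 511 and 300.4 CPM in H2O microglia, and 845, 523, 5326 and 7218 CPM in LPS astrocytes, against 146, 141, 190.0 and 414 CPM in H2O astrocytes. In CPM per library total, which leave out the TMM factors, astrocyte replicates 3 and 4 thus reached the microglial level and replicates 1 and 2 did not. The Sod2 difference was -0.33 ± 1.06 (adjusted p = 0.89), against 1.55 (adjusted p = 0.065) with astrocyte replicates 1 and 2 alone.

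In the list of interleukin-1, TNF and interleukin-6 family genes, 9 of 17 rose in microglia and 5 in astrocytes, with 1 difference higher in microglia, that of the death ligand gene Tnfsf10 at 4.19 ± 0.93 (adjusted p = 0.014) (with the replicate block, 1 fell in microglia, 8 rose in astrocytes and 3 differences higher). Tnf had 70.5, 156 and 554 CPM in LPS microglia, against 60.4, 45.3 and 63.1 CPM in H2O microglia, and 10.9, 8.90, 28.3 and 34.5 CPM in LPS astrocytes, against 2.07, 1.41, 3.62 and 5.30 CPM in H2O astrocytes. The responses were 2.52 ± 0.76 in microglia and 2.77 ± 0.68 in astrocytes, and their difference was -0.25 ± 0.96 (adjusted p = 0.91), which turned to 0.20 without LPS microglia replicate 1, 0.04 without LPS microglia replicate 2 and 0.12 without LPS astrocytes replicate 4. Il1b had 1306, 1402 and 5454 CPM in LPS microglia, against 177, 239.9 and 104 CPM in H2O microglia, and 110.2, 91.2, 293 and 269.9 CPM in LPS astrocytes, against 3.47, 1.23, 1.63 and 2.40 CPM in H2O astrocytes. Its difference was -2.20 ± 0.87 (adjusted p = 0.12), and without LPS microglia replicate 3, the highest library, it was -3.27 (adjusted p = 0.018). Il1a had 159, 87.4 and 3833 CPM in LPS microglia, against 16.9, 12.3 and 22.1 CPM in H2O microglia. Its levels were 42.7, 35.8, 147 and 132 CPM in LPS astrocytes, against 0.701, 0.447, 0.358 and 1.28 CPM in H2O astrocytes, with a difference of -0.37 ± 1.48 (adjusted p = 0.92); without LPS microglia replicate 3 it was -3.92 (adjusted p = 0.016), and it turned to 0.16 without LPS microglia replicate 1 and 0.18 without LPS microglia replicate 2. Il6 had 13.8, 6.14 and 140.1 CPM in LPS microglia, against 0.126, 0.0969 and 0.0468 CPM in H2O microglia. The astrocyte levels were 5.81, 6.09, 30.9 and 28.6 CPM in LPS astrocytes, against 0.246, 0.968, 0.755 and 0.662 CPM in H2O astrocytes, with a difference of 4.72 ± 1.66 (adjusted p = 0.084, and 0.045 with the replicate block) and 5.25 (adjusted p = 0.044) without LPS microglia replicate 2. For Tnf, Il1b and Il1a the LPS astrocyte level was 7.92%, 7.02% and 6.56% of the LPS microglial level, and for Il6 it was 33.5%, beside 2.98% for the summed microglial markers. The part of microglial RNA in these cytokine levels was not tested.

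Among the other cytokines, 7 of 13 rose and 1 fell in microglia and 5 rose in astrocytes, with 1 difference in each direction (with the replicate block, 2 differences higher). Il10 had 29.3, 44.1 and 53.5 CPM in LPS microglia, against 1.64, 3.68 and 0.211 CPM in H2O microglia, but only 0.253, 0.0761, 0.167 and 0.122 CPM in LPS astrocytes, against 0, 0, 0 and 0 CPM in H2O astrocytes; over the group its astrocyte level was at least 5.35-fold higher with LPS, against a floor of 3 counts over the H2O group. Il12b, a subunit of interleukin-12 and interleukin-23, had 3.04, 1.93 and 10.3 CPM in LPS microglia, against 0.0505, 0 and 0.0234 CPM in H2O microglia, and 0.884, 1.26, 7.06 and 1.63 CPM in LPS astrocytes, against 0, 0, 0 and 0 CPM in H2O astrocytes. That was a ratio of 208 (95% counting interval 71.0 to 1014) over the microglial groups and at least 102-fold higher over the astrocyte groups. Csf3, the granulocyte colony-stimulating factor gene, had 5.37, 3.03 and 223 CPM in LPS microglia, against 0, 0 and 0.0936 CPM in H2O microglia, and 11.96, 5.17, 14.7 and 51.7 CPM in LPS astrocytes, against 0.0701, 0.0372, 0 and 0 CPM in H2O astrocytes, a ratio of 711 (95% counting interval 243 to 3448) over the astrocyte groups. The differences of Il10, Il12b and Csf3 were not called (adjusted p = 0.73, 0.61 and 0.81), and each turned its sign under at least 1 alternative. The 2 called differences were in Il7, a lymphocyte growth factor, at 3.31 ± 0.78 (adjusted p = 0.018), lost without H2O microglia replicate 1, and in Csf1. The astrocyte change of Il7 was 1.85 ± 0.49 (adjusted p = 0.066, and 0.0070 with the replicate block).

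Csf1, the growth factor on which microglia depend for survival, moved in opposite directions. It had 30.7, 14.7 and 14.6 CPM in LPS microglia, against 74.6, 53.0 and 61.4 CPM in H2O microglia, and 912, 687, 1773 and 1756 CPM in LPS astrocytes, against 314, 330.1, 476 and 529.6 CPM in H2O astrocytes. No LPS library overlapped an H2O library in either cell type, which the rule for genes named by class required. It fell by 1.37 ± 0.41 on the log2 scale in microglia and rose by 1.66 ± 0.36 in astrocytes, a difference of -3.03 ± 0.55 (adjusted p = 0.0046) that was called without each library in turn, with values from -3.49 to -2.83. The LPS astrocyte level of Csf1 was 6413% of the LPS microglial level.

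Most chemokines rose in each cell type. Among 9 CC chemokines, 6 rose in microglia and 7 in astrocytes and 0 differences were called in either direction by edgeR (with the replicate block, 1 difference lower); the median response was 4.61 in microglia and 5.996 in astrocytes. Ccl2, which recruits monocytes through CCR2, had 702, 429 and 2783 CPM in LPS microglia, against 75.7, 30.9 and 26.7 CPM in H2O microglia, and 1664, 1316, 2223 and 2519.7 CPM in LPS astrocytes, against 185, 90.4, 42.7 and 145 CPM in H2O astrocytes. Its difference was 1.11 ± 0.93 (adjusted p = 0.49), and -0.16 without LPS microglia replicate 3. Ccl5, which attracts T cells and monocytes, had 48.7, 23.6 and 26.5 CPM in LPS microglia, against 0.0757, 0.0242 and 0.0702 CPM in H2O microglia, and 136, 119.8, 1120.5 and 788 CPM in LPS astrocytes, against 0, 0.447, 0.278 and 0.952 CPM in H2O astrocytes. The Ccl5 level in LPS astrocytes was 1645% of that in LPS microglia, with a difference in response of -0.999 ± 1.98 (adjusted p = 0.80). Of 14 CXC and CX3C chemokines, 9 rose in microglia and 8 in astrocytes, the difference was higher in 2 (Cxcl10 and Cxcl11) and lower in 1 (Cxcl16) (with the replicate block, 1 fell in microglia and 3 differences lower). Cxcl1, which attracts neutrophils, had 59.7, 15.0 and 697 CPM in LPS microglia, against 2.12, 0.823 and 1.73 CPM in H2O microglia. It stood at 562, 369.6, 1015 and 1333 CPM in LPS astrocytes, against 27.99, 28.9, 37.8 and 173 CPM in H2O astrocytes, with a difference of 4.04 ± 1.56 (adjusted p = 0.11) and an astrocyte change of 3.66 ± 1.07 (adjusted p = 0.094, and 0.011 with the replicate block).

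**Figure D3:**
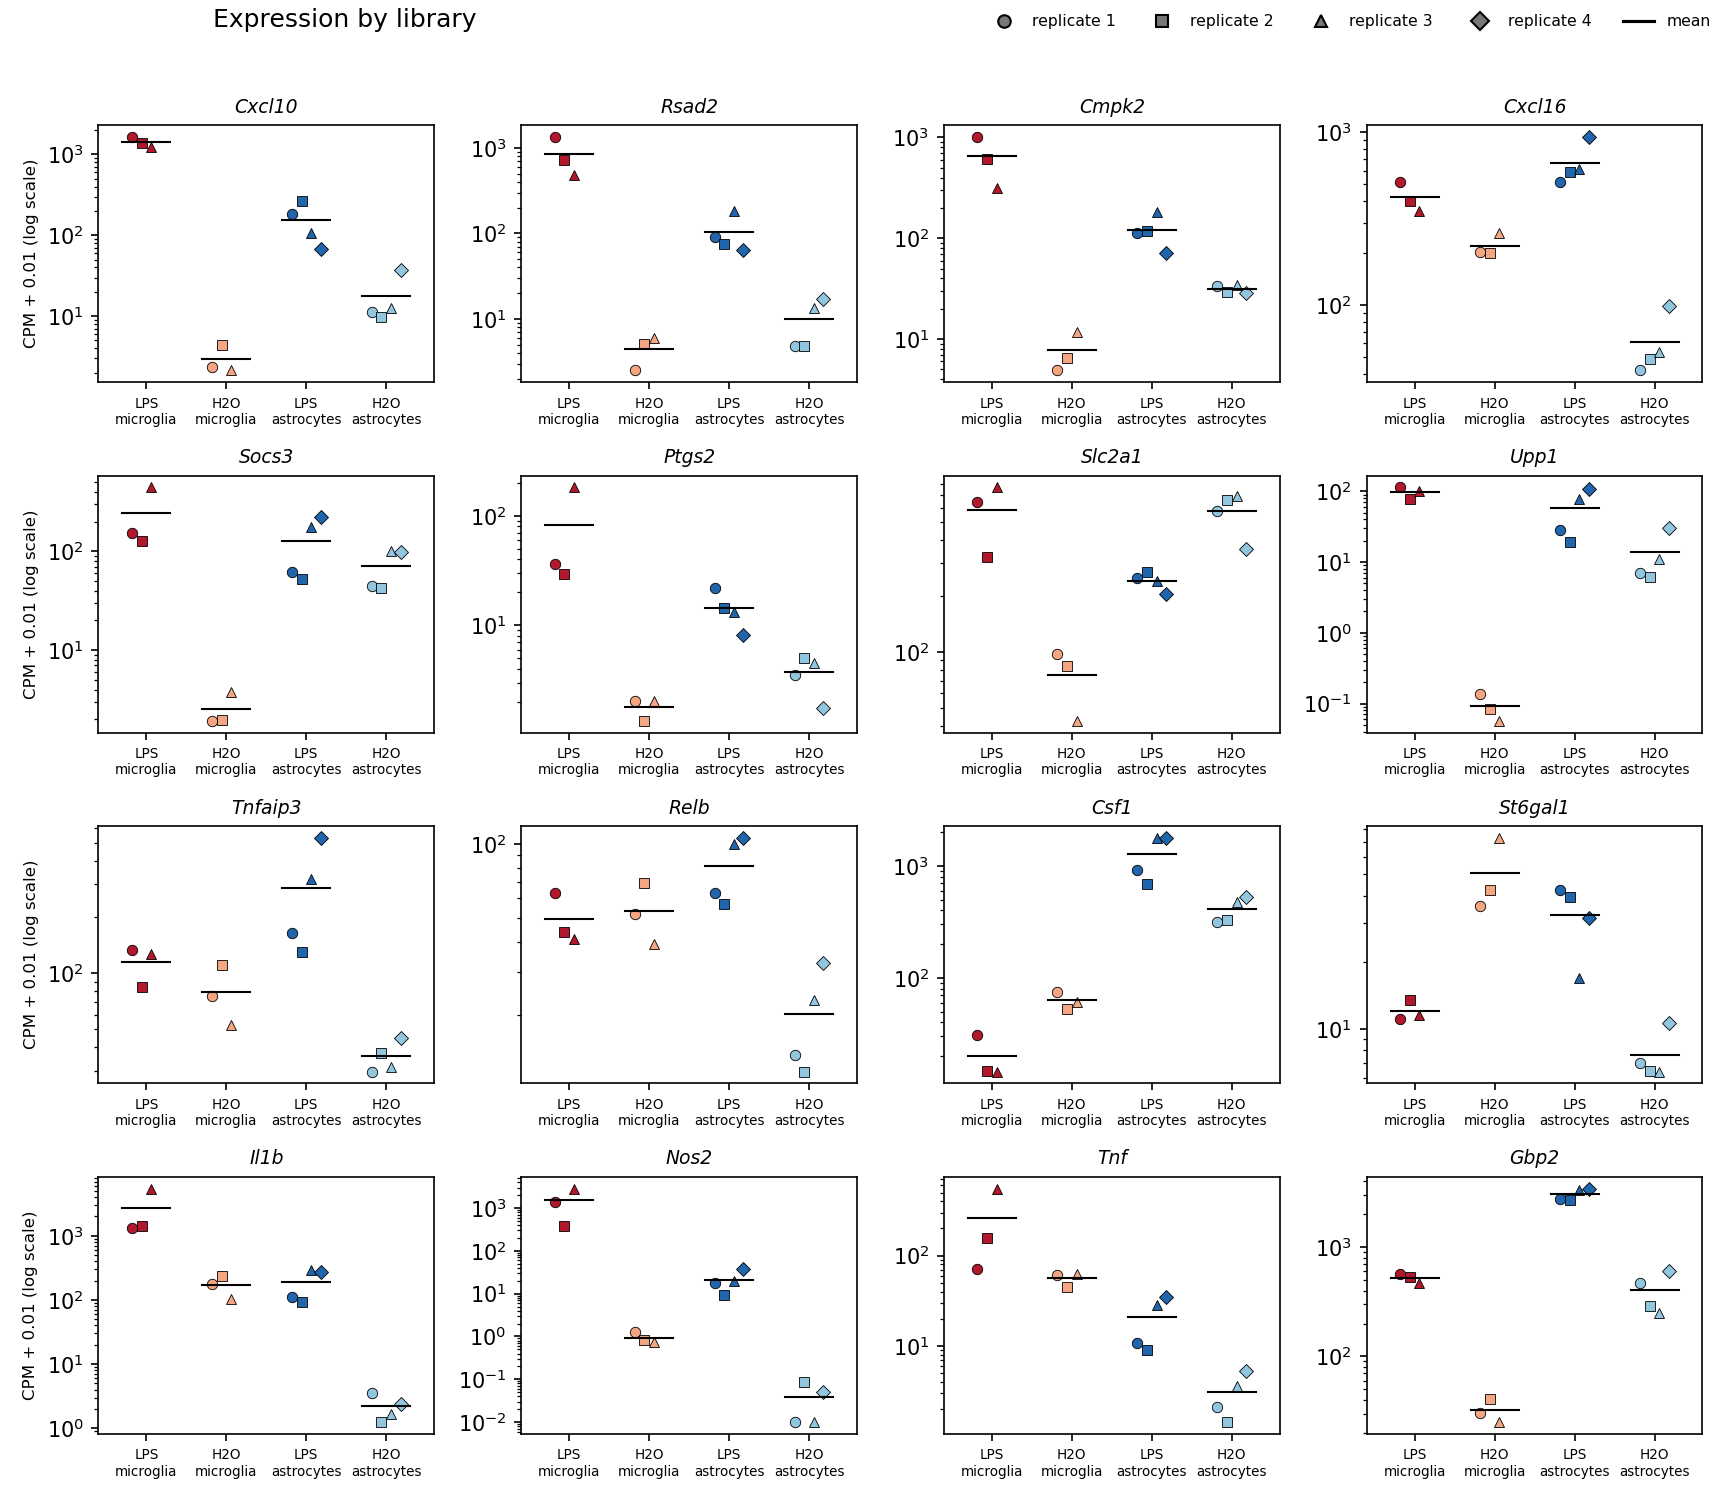
CPM plus 0.01 (log scale) of 16 genes in each of the 14 libraries; symbols mark replicate numbers, colours the 4 groups and bars the group means. Cxcl10, Rsad2 and Cmpk2 rose further in microglia, Tnfaip3 and Relb were higher with LPS in astrocytes while their microglial groups overlapped, Csf1 and St6gal1 moved in opposite directions, and Il1b, Nos2 and Tnf were higher with LPS in both.

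Of 22 enzymes and transporters of nitric oxide, itaconate and prostaglandin synthesis, 11 rose and 1 fell in microglia and 4 rose and 1 fell in astrocytes. The difference was higher in 2, against 5.32% of all genes (with the replicate block, 3 fell in microglia, 8 rose in astrocytes, 3 fell in astrocytes and 7 differences higher). Slc7a2, a transporter that supplies arginine, had 217, 107 and 505 CPM in LPS microglia, against 1.87, 0.896 and 2.22 CPM in H2O microglia, and 10.4, 9.39, 27.5 and 26.1 CPM in LPS astrocytes, against 8.52, 6.85, 5.28 and 5.26 CPM in H2O astrocytes. The difference was 6.17 ± 0.84 (adjusted p = 0.00098), from 5.35 to 6.57 without each library in turn. Ptgs2, the inducible cyclooxygenase, had 36.2, 29.1 and 182 CPM in LPS microglia, against 2.04, 1.33 and 2.04 CPM in H2O microglia. Its levels were 22.1, 14.4, 13.3 and 8.20 CPM in LPS astrocytes, against 3.54, 5.03, 4.53 and 1.74 CPM in H2O astrocytes, with a difference of 3.88 ± 0.89 (adjusted p = 0.016); without LPS microglia replicate 3 it was 2.47 (adjusted p = 0.018). Its astrocyte change was 1.96 ± 0.58 (adjusted p = 0.098, and 0.019 with the replicate block). Nos2, the inducible nitric oxide synthase, had 1398, 384 and 2845 CPM in LPS microglia, against 1.24, 0.823 and 0.726 CPM in H2O microglia, and 17.4, 9.43, 19.4 and 38.5 CPM in LPS astrocytes, against 0, 0.0745, 0 and 0.0414 CPM in H2O astrocytes, which was a ratio of 731 (95% counting interval 250 to 3545) over the astrocyte groups. Its difference of 1.69 ± 2.06 was not called (adjusted p = 0.66). Acod1, the itaconate-producing enzyme, had 346, 128 and 233 CPM in LPS microglia, against 1.03, 1.02 and 0.164 CPM in H2O microglia. For astrocytes the values were 4.38, 3.42, 12.7 and 15.6 CPM in LPS astrocytes, against 0.0351, 0.149, 0.199 and 0.373 CPM in H2O astrocytes, with a difference of 2.99 ± 1.19 (adjusted p = 0.12). Arg1, the liver-type arginase, had 34.1, 6.01 and 9.87 CPM in LPS microglia, against 0.151, 0.0242 and 0.0702 CPM in H2O microglia. It stood at 1.68, 0.266, 0.0335 and 0.0816 CPM in LPS astrocytes, against 0.0351, 0.112, 0 and 0 CPM in H2O astrocytes, with a difference of 4.34 ± 2.31 (adjusted p = 0.25, and 0.041 with the replicate block) and an astrocyte change of 3.57 ± 1.34 (adjusted p = 0.20, and 0.019 with the replicate block). The LPS astrocyte levels of Nos2, Acod1 and Arg1 were 1.37%, 3.82% and 3.10% of the LPS microglial levels, in the range of the summed microglial markers at 2.98%, and the part of microglial RNA in them was not tested.

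Among the 33 gene lists, glycolysis had the highest share of members with a called difference. Of 20 genes, 13 rose and 1 fell in microglia, 0 were called in astrocytes in either direction, and the difference was higher in microglia in 12, against 5.32% of all genes (with the replicate block, 1 rose in astrocytes, 1 fell in astrocytes and 1 difference lower). The median member response was 1.69 in microglia and 0.00 in astrocytes. In sum the list reached 13886, 10137 and 10867 CPM in LPS microglia, against 4800, 3586 and 3863 CPM in H2O microglia. It stood at 6132, 5963, 7458 and 7447 CPM in LPS astrocytes, against 7121, 7046, 7513 and 7895 CPM in H2O astrocytes. H2O astrocytes therefore had the higher baseline, and LPS microglia exceeded all astrocyte libraries. Slc2a1, the glucose transporter GLUT1, had 639, 326 and 772 CPM in LPS microglia, against 97.7, 83.7 and 42.5 CPM in H2O microglia, and 250.2, 270.0, 241 and 204 CPM in LPS astrocytes, against 574, 659, 693 and 361 CPM in H2O astrocytes. It rose by 3.25 ± 0.41 in microglia, the astrocyte change was -1.24 ± 0.33 (adjusted p = 0.067), and the difference was 4.49 ± 0.52 (adjusted p = 0.00043), from 4.19 to 4.79 without each library in turn. Other members with a called difference were Hk1, the first enzyme of glycolysis, at 2.55 ± 0.27 (adjusted p = 0.00026), Eno1, an enolase, at 2.46 ± 0.28 (adjusted p = 0.00039), Ldha, lactate dehydrogenase A, at 2.35 ± 0.24 (adjusted p = 0.00022) and Pfkfb3, which makes an activator of phosphofructokinase, at 2.26 ± 0.50 (adjusted p = 0.013). The lactate exporter gene Slc16a3 differed by 2.92 ± 0.86 (adjusted p = 0.044), a call kept only without LPS astrocytes replicate 4. With astrocyte replicates 3 and 4 alone, 7 of the 12 differences were called. In nuclear-encoded respiratory chain subunits 2 of 25 rose and 4 fell in microglia, 0 changed in astrocytes and 0 differences were called by edgeR (with the replicate block, 4 rose in microglia and 1 difference higher). Mitochondrially encoded genes held 1.69%, 1.52% and 1.53% of counts in LPS microglia, against 3.04%, 3.23% and 3.00% in H2O microglia. They held 3.37%, 2.32%, 1.64% and 1.93% in LPS astrocytes, against 2.58%, 2.48%, 1.51% and 1.92% in H2O astrocytes.

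Other metabolic and redox genes also differed. Over all genes tested, 5.32% of differences were higher in microglia and 7.14% lower. With the replicate block, 1210 of the 13280 were higher and 1819 lower. Upp1, uridine phosphorylase, had 114, 78.8 and 99.4 CPM in LPS microglia, against 0.126, 0.0726 and 0.0468 CPM in H2O microglia, and 28.1, 18.9, 78.9 and 108 CPM in LPS astrocytes, against 7.08, 6.14, 11.2 and 30.3 CPM in H2O astrocytes. It rose by 10.46 ± 1.07 in microglia and changed by 2.14 ± 0.60 (adjusted p = 0.080, and 0.0014 with the replicate block) in astrocytes. Its difference was 8.31 ± 1.14 (adjusted p = 0.0010), from 7.60 to 8.80 without each library in turn. Among 18 amino acid and nucleotide enzymes 5 differences were higher in microglia and 0 lower (with the replicate block, 1 difference lower). In the NRF2 and metallothionein list, 8 of 16 rose in microglia and 0 changed in astrocytes, with 5 differences higher in microglia (with the replicate block, 3 fell in microglia, 2 rose in astrocytes, 2 fell in astrocytes and 8 differences higher). That 5 became 2 or 3 without LPS microglia replicate 1, H2O microglia replicate 1 or 2, LPS astrocytes replicate 3 or 4 or H2O astrocytes replicate 1 or 2. Me1, the malic enzyme that yields NADPH, differed by 1.97 ± 0.35 (adjusted p = 0.0041), and the metallothionein Mt2A by 4.99 ± 1.12 (adjusted p = 0.014). Mt2A stood at 9.90, 4.31 and 33.7 CPM in LPS microglia, against 0.656, 0.605 and 0.843 CPM in H2O microglia, and at 568, 474, 594 and 1566 CPM in LPS astrocytes, against 469, 395, 688 and 2138 CPM in H2O astrocytes, so its microglial level stayed below every astrocyte library. Among genes of the citric acid cycle and fatty acid oxidation 2 of 26 differences were lower, near the share over all genes tested (with the replicate block, 2 differences higher). The 2 lower were Cpt2 at -0.90 ± 0.18 (adjusted p = 0.0069) and Acadl at -0.64 ± 0.15 (adjusted p = 0.016), both enzymes of fatty acid breakdown. In the cholesterol list 3 of 24 rose and 8 fell in microglia and 0 changed in astrocytes, and the difference was higher in 1, Nr1h3, and lower in 5 (with the replicate block, 5 rose in microglia, 1 rose in astrocytes and 2 differences higher). Nr1h3, the nuclear receptor LXR-alpha, differed by 2.004 ± 0.55 (adjusted p = 0.034), a call lost without each of 7 libraries in turn. Msmo1 and Sc5d, late enzymes of cholesterol synthesis, differed by -0.91 ± 0.22 (adjusted p = 0.021) and -1.12 ± 0.26 (adjusted p = 0.018). That 5 became 3 without H2O microglia replicate 2 or 3, LPS astrocytes replicate 2 or H2O astrocytes replicate 1, 2 or 3, and 0 with astrocyte replicates 3 and 4 alone.

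Genes of DNA replication and mitosis fell in microglia and not in astrocytes as a list. Of 30 members 27 fell in microglia and 0 changed in astrocytes, and the median response was -3.03 in microglia and 0.00 in astrocytes. The summed level was 152, 191 and 207 CPM in LPS microglia, against 1096, 790 and 1731 CPM in H2O microglia. In astrocytes it was 6015, 6410.5, 2148 and 790 CPM with LPS, against 5363, 4834, 2619 and 2181 CPM with H2O. LPS astrocytes were therefore higher than H2O astrocytes in replicates 1 and 2 and lower in replicates 3 and 4, replicate 4 the most. Mki67, the proliferation antigen Ki-67, had 2.43, 6.58 and 8.61 CPM in LPS microglia, against 184, 88.7 and 182 CPM in H2O microglia. Its levels were 734, 654, 165 and 46.0 CPM in LPS astrocytes, against 494, 491, 171 and 143 CPM in H2O astrocytes, with a difference of -4.69 ± 1.18 (adjusted p = 0.025). That call was lost without LPS microglia replicate 1 or 2 or H2O microglia replicate 1 (adjusted p up to 0.057). Ube2c, a ubiquitin-conjugating enzyme of mitosis, differed by -4.58 ± 1.19 (adjusted p = 0.028), lost without each of 7 libraries in turn. The difference was lower in microglia in 11 members, against 7.14% of all genes, and this number depended on the libraries and the fit. It was 24 with the replicate block, 22 with DESeq2 and 0 with limma voom. Without LPS astrocytes replicate 4 it was 27, without LPS astrocytes replicate 2 it was 7, without LPS microglia replicate 3 it was 18, and without LPS microglia replicate 1 or 2, H2O microglia replicate 1 or 3, LPS astrocytes replicate 1 or H2O astrocytes replicate 3 or 4 it lay between 1 and 5. It was 23 with astrocyte replicates 1 and 2 alone and 0 with replicates 3 and 4 alone.

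Of 23 homeostatic microglial genes, typical of resting microglia, 11 fell in microglia, against 16% of all genes, and 4 fell in astrocytes, against 1%. The difference was higher in 1 and lower in 6, while the median difference was 0.13 (with the replicate block, 1 rose in microglia, 9 fell in astrocytes and 3 differences higher). Pros1, a ligand of the TAM receptors, had 3.24, 2.85 and 1.63 CPM in LPS microglia, against 36.6, 40.2 and 51.5 CPM in H2O microglia, and 36.7, 36.2, 77.5 and 72.8 CPM in LPS astrocytes, against 52.5, 55.3, 88.6 and 99.6 CPM in H2O astrocytes; its difference was -3.40 ± 0.50 (adjusted p = 0.0014). The summed microglial markers were also lower in LPS astrocytes, at a mean of 342.9 CPM against 631.8 CPM in H2O astrocytes, and their part in the results of this list was not tested. Of 27 lysosomal and phagocytic genes 2 rose and 12 fell in microglia and 2 fell in astrocytes, with 1 difference higher and 5 lower (with the replicate block, 4 rose in microglia, 5 fell in astrocytes and 5 differences higher and 10 lower). Hexa, a lysosomal hexosaminidase subunit, differed by -1.75 ± 0.26 (adjusted p = 0.0016) and the protease gene Ctsl by 1.34 ± 0.27 (adjusted p = 0.0082). In the disease-associated microglial list, 3 of 20 rose and 8 fell in microglia, 1 rose and 3 fell in astrocytes, and the difference was higher in 1 and lower in 5 (with the replicate block, 3 rose in astrocytes, 6 fell in astrocytes and 2 differences higher). Cd9, a tetraspanin of that list, had 9.62, 5.04 and 7.09 CPM in LPS microglia, against 253, 217 and 231 CPM in H2O microglia. It stood at 343, 460.3, 459 and 355 CPM in LPS astrocytes, against 513, 523, 646 and 601 CPM in H2O astrocytes, a difference of -4.23 ± 0.31 (adjusted p = 7.3e-05).

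Igf1, Tyro3, Col4a5 and F5 fell in both cell types and further in microglia. Igf1, a growth factor that microglia supply, had 37.9, 26.0 and 8.61 CPM in LPS microglia, against 954, 604 and 932 CPM in H2O microglia, and 1.94, 1.18, 2.14 and 1.59 CPM in LPS astrocytes, against 7.65, 4.62, 5.28 and 19.0 CPM in H2O astrocytes. Its difference was -2.45 ± 0.74 (adjusted p = 0.049), just inside the threshold, and was kept without LPS microglia replicate 1 or H2O astrocytes replicate 4 and lost without each of the other 12 libraries. The LPS astrocyte level was 7.09% of the LPS microglial level. Tyro3, a TAM receptor of phagocytosis, had 1.11, 0.940 and 1.23 CPM in LPS microglia, against 12.5, 10.6 and 11.4 CPM in H2O microglia, and 90.3, 98.6, 97.6 and 89.9 CPM in LPS astrocytes, against 176, 169.7, 216 and 257 CPM in H2O astrocytes. It fell by 3.11 ± 0.18 in microglia and by 1.10 ± 0.14 in astrocytes on the log2 scale, and the difference was -2.003 ± 0.22 (adjusted p = 0.00028). Col4a5, a basement membrane collagen, was listed at 0 in all 3 LPS microglia libraries, against 0.0757, 0.242 and 0.257 CPM in H2O microglia, at least 7.496-fold lower over the group against a floor of 3 counts, and had 162, 164, 197 and 149 CPM in LPS astrocytes, against 373, 354, 453 and 421 CPM in H2O astrocytes. Its fitted difference of -4.62 ± 0.93 (adjusted p = 0.012) rests on a group at 0, depends on the prior count and is no bound. F5, coagulation factor V, differed by -1.89 ± 0.57 (adjusted p = 0.049), a call lost without each of 11 libraries in turn.

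Of the 16 genes that moved in opposite directions, 9 were chosen by the rule for named genes, Csf1 among them. St6gal1, which adds sialic acid to glycoproteins, had 11.02, 13.5 and 11.53 CPM in LPS microglia, against 35.9, 42.6 and 73.0 CPM in H2O microglia, and 42.2, 39.6, 17.0 and 31.7 CPM in LPS astrocytes, against 7.01, 6.44, 6.40 and 10.6 CPM in H2O astrocytes. LPS and H2O libraries did not overlap within either cell type, as that rule required. The difference was -3.90 ± 0.44 (adjusted p = 0.00039), from -4.11 to -3.57 without each library in turn. Xylt1, the enzyme that starts glycosaminoglycan chains, had 3.77, 5.72 and 7.04 CPM in LPS microglia, against 18.8, 20.4 and 25.3 CPM in H2O microglia. Its levels were 86.4, 85.5, 69.8 and 73.0 CPM in LPS astrocytes, against 39.4, 32.9, 22.8 and 25.3 CPM in H2O astrocytes, a difference of -3.07 ± 0.33 (adjusted p = 0.00028). Kirrel1, a cell adhesion molecule, had 1.32, 2.14 and 1.58 CPM in LPS microglia, against 10.9, 9.90 and 9.62 CPM in H2O microglia. For astrocytes the values were 279, 298, 291 and 375 CPM in LPS astrocytes, against 225, 221, 195 and 183 CPM in H2O astrocytes, a difference of -2.93 ± 0.23 (adjusted p = 7.3e-05). Abcb4, a phospholipid transporter, and Sik1, a salt-inducible kinase, differed by -3.19 ± 0.47 (adjusted p = 0.0015) and -2.61 ± 0.44 (adjusted p = 0.0034). All 5 fell in microglia and rose in astrocytes. In the reverse direction, Anks1a, an adaptor of ephrin receptors, had 261, 338 and 247 CPM in LPS microglia, against 110.2, 146 and 87.0 CPM in H2O microglia. It stood at 55.3, 58.9, 51.6 and 53.7 CPM in LPS astrocytes, against 88.9, 74.6, 83.6 and 117 CPM in H2O astrocytes, with a difference of 2.28 ± 0.26 (adjusted p = 0.00039). Vwa1, an extracellular matrix protein, had 5.29, 1.83 and 1.02 CPM in LPS microglia, against 0.101, 0.145 and 0.281 CPM in H2O microglia, and 2.19, 4.91, 6.36 and 2.69 CPM in LPS astrocytes, against 14.2, 27.5, 49.8 and 16.5 CPM in H2O astrocytes; its difference was 6.93 ± 0.99 (adjusted p = 0.0012). Lxn, latexin, an inhibitor of carboxypeptidases, differed by 1.49 ± 0.27 (adjusted p = 0.0044). Vwa1, Anks1a and Lxn rose in microglia and fell in astrocytes. The called differences of these genes and of Csf1 were all kept without each of the 14 libraries in turn. Whether the separate calls within each cell type were kept was not examined gene by gene. The adjusted p of the astrocyte change ran from 0.0024 for St6gal1 to 0.046 for Lxn in the main fit.

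Other genes rose in 1 cell type alone by the test and were present in the other. Sntb1, a syntrophin of the dystrophin complex, had 22.8, 23.8 and 24.3 CPM in LPS microglia, against 0.177, 0.291 and 0.234 CPM in H2O microglia, and 23.6, 21.3, 57.1 and 53.1 CPM in LPS astrocytes, against 27.1, 30.3, 52.5 and 43.7 CPM in H2O astrocytes. The LPS and H2O ranges did not overlap in microglia, as the rule for named genes required, and overlapped in astrocytes. Its difference was 6.88 ± 0.59 (adjusted p = 9.9e-05). Adra2a, the alpha-2A adrenergic receptor, had 2.86, 11.1 and 39.5 CPM in LPS microglia, against 0.151, 0.121 and 0.0702 CPM in H2O microglia, and 2.57, 1.45, 1.61 and 1.26 CPM in LPS astrocytes, against 5.58, 3.91, 7.75 and 8.90 CPM in H2O astrocytes. It rose by 7.56 ± 0.95 in microglia and changed by -1.91 ± 0.62 (adjusted p = 0.14, and 0.048 with the replicate block) in astrocytes, a difference of 9.46 ± 1.12 (adjusted p = 0.00045). Chadl, a leucine-rich matrix protein, had 22.7, 22.7 and 39.6 CPM in LPS microglia, against 0, 0.0242 and 0.843 CPM in H2O microglia. Its levels were 5.18, 6.66, 12.2 and 17.8 CPM in LPS astrocytes, against 9.51, 8.49, 13.6 and 22.2 CPM in H2O astrocytes, with a difference of 7.22 ± 1.296 (adjusted p = 0.0045), which was 11.41 without H2O microglia replicate 3. In the reverse case, Cd83, a surface marker of activated immune cells, had 58.0, 31.5 and 272 CPM in LPS microglia, against 207, 219 and 238 CPM in H2O microglia, and 74.8, 71.6, 183 and 315 CPM in LPS astrocytes, against 4.35, 4.13, 5.05 and 11.01 CPM in H2O astrocytes. The response was -0.55 ± 0.76 (adjusted p = 0.62) in microglia and 4.75 ± 0.77 in astrocytes and its difference -5.31 ± 1.07 (adjusted p = 0.0084), from -6.80 to -4.75 without each library in turn. Dennd3, an activator of Rab GTPases, had 9.12, 8.59 and 5.65 CPM in LPS microglia, against 8.96, 10.97 and 17.9 CPM in H2O microglia. The astrocyte levels were 70.7, 48.5, 73.8 and 115 CPM in LPS astrocytes, against 10.8, 11.7, 10.97 and 25.6 CPM in H2O astrocytes, with a difference of -2.83 ± 0.53 (adjusted p = 0.0055). Enpp2, which makes lysophosphatidic acid, and Rab20, a phagosome GTPase, also rose in astrocytes alone by the test, with differences of -5.20 ± 1.39 (adjusted p = 0.031) and -3.24 ± 0.93 (adjusted p = 0.040); these calls were lost without each of 8 and 9 libraries in turn.

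In 672 genes with at least 5 CPM in the H2O libraries of both cell types, microglia fell, astrocytes did not pass the test and the difference was negative. Among the 656 of these that met the rule for named genes, Dhrs9, Plxdc2, Slc15a2 and Rasgrp3 had the largest differences. Rasgrp3, an activator of Ras in immune cells, had 4.05, 3.68 and 4.18 CPM in LPS microglia, against 269, 228 and 356 CPM in H2O microglia, and 3.37, 3.65, 6.16 and 3.75 CPM in LPS astrocytes, against 5.16, 8.53, 7.43 and 9.73 CPM in H2O astrocytes. Its astrocyte change was -0.84 ± 0.24 (adjusted p = 0.078, and 0.023 with the replicate block) and its difference -5.03 ± 0.37 (adjusted p = 7.3e-05). Dhrs9, a retinol dehydrogenase, had 0.481, 0.496 and 2.28 CPM in LPS microglia, against 86.3, 80.1 and 101 CPM in H2O microglia. It stood at 16.7, 13.0, 42.8 and 63.3 CPM in LPS astrocytes, against 10.1, 10.4, 7.15 and 20.5 CPM in H2O astrocytes, a difference of -7.58 ± 1.000 (adjusted p = 0.00085). Slc15a2, a peptide transporter, and Plxdc2, a membrane protein, differed by -5.46 ± 1.10 (adjusted p = 0.0082) and -5.61 ± 0.79 (adjusted p = 0.0012), and the astrocyte change of Slc15a2 was -1.74 ± 0.55 (adjusted p = 0.13, and 0.0017 with the replicate block). In 13 genes astrocytes fell, microglia did not pass the test and the difference was positive, and 4 of them had at least 5 CPM in the H2O libraries of both cell types. Gab1, a docking protein of growth factor receptors, had 62.0, 46.4 and 41.04 CPM in LPS microglia, against 55.5, 58.4 and 51.2 CPM in H2O microglia. Its levels were 61.0, 70.1, 69.0 and 59.9 CPM in LPS astrocytes, against 95.8, 116, 128 and 109 CPM in H2O astrocytes, with a difference of 0.91 ± 0.21 (adjusted p = 0.017). Cerk, ceramide kinase, differed by 0.91 ± 0.21 (adjusted p = 0.017), with the call lost without H2O astrocytes replicate 3 (adjusted p = 0.051), and Myo7a, a myosin, and S100a4, a calcium-binding protein, by 1.59 ± 0.45 (adjusted p = 0.039) and 1.15 ± 0.31 (adjusted p = 0.030), with the call lost without each of 10 and 7 libraries in turn.

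Of 22 astrocyte genes for glutamate, potassium and water transport and junctions, 1 rose and 1 fell in microglia, 0 changed in astrocytes and 0 differences were called by edgeR (with the replicate block, 8 fell in microglia, 5 fell in astrocytes and 3 differences higher and 2 lower). Gfap, the astrocyte filament gene, had 0.0253, 0.0522 and 2.31 CPM in LPS microglia, against 0.151, 0.726 and 1.08 CPM in H2O microglia, and 762, 815, 2338 and 2700.2 CPM in LPS astrocytes, against 2932, 3481, 5252 and 6388 CPM in H2O astrocytes. Its astrocyte response was -1.42 ± 0.89 (adjusted p = 0.48) and its difference 2.03 ± 1.45 (adjusted p = 0.41), which turned to -2.32 without LPS microglia replicate 3. Lcn2, a secreted iron-binding protein of reactive astrocytes, had 934, 1064 and 123 CPM in LPS microglia, against 0.580, 0.218 and 0.0936 CPM in H2O microglia, and 242, 54.8, 858 and 1602 CPM in LPS astrocytes, against 8.31, 2.05, 7.11 and 53.2 CPM in H2O astrocytes. Its responses were 11.46 ± 1.95 in microglia and 5.35 ± 1.28 in astrocytes, and the difference of 6.11 ± 1.87 (adjusted p = 0.052, and 0.0015 with the replicate block) lay just outside the threshold for a call. It passed without LPS microglia replicate 3, LPS astrocytes replicate 4 or H2O astrocytes replicate 2 (adjusted p = 0.039, 0.037 and 0.047). C3, the central complement component, had 1399, 1396 and 983 CPM in LPS microglia, against 2667, 2946 and 1626 CPM in H2O microglia. For astrocytes the values were 1217, 484, 4559 and 7837 CPM in LPS astrocytes, against 319.5, 248, 715 and 1950.4 CPM in H2O astrocytes, with a difference of -2.85 ± 1.21 (adjusted p = 0.15, and 0.0047 with the replicate block) and an astrocyte change of 2.18 ± 0.81 (adjusted p = 0.20, and 0.0051 with the replicate block). Of the acute-phase and complement list, 5 of 25 rose and 2 fell in microglia, 3 rose and 1 fell in astrocytes, and 1 difference was called, that of the complement protease C1r at 3.60 ± 0.76 (adjusted p = 0.010) (with the replicate block, 8 rose in microglia, 11 rose in astrocytes, 6 fell in astrocytes and 5 differences higher and 4 lower). Of 12 pan-reactive astrocyte genes 2 differences were higher, Cxcl10 and Osmr, and 0 lower, against 5.32% and 7.14% of all genes (with the replicate block, 2 differences lower). Osmr, the oncostatin M receptor, differed by 2.90 ± 0.74 (adjusted p = 0.026), lost without H2O microglia replicate 1 or 2 (adjusted p up to 0.071). In the list named A1, 2 of 9 were higher and 0 lower, Gbp2 and the galactosyltransferase gene Ggta1, at 1.68 ± 0.47 (adjusted p = 0.036), kept without 5 of the 14 libraries (with the replicate block, 1 difference lower). The astrocyte change of Ggta1 was -0.43 ± 0.30 (adjusted p = 0.55, and 0.019 with the replicate block). In the list named A2, 1 of 12 was higher, Ptgs2, and 0 lower (with the replicate block, 2 differences higher and 1 lower). Among 18 adhesion genes 2 were higher and 0 lower (with the replicate block, 4 differences higher and 1 lower). Itga5, the fibronectin receptor subunit, differed by 2.52 ± 0.64 (adjusted p = 0.024), lost without H2O microglia replicate 2 or 3 (adjusted p up to 0.060).

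Among 33 matrix and protease genes the difference was higher in 2, Adamts4 and Mmp14, and lower in 3, Plau, Sparc and Lamc1 (with the replicate block, 5 differences higher and 9 lower). Here and for the lists that follow, 5.32% of all genes tested were higher and 7.14% lower. With the replicate block, 1210 of the 13280 were higher and 1819 lower. Adamts4, an aggrecan-cleaving protease, differed by 5.26 ± 1.08 (adjusted p = 0.0093) and Plau, the urokinase gene, by -4.06 ± 0.94 (adjusted p = 0.017). Mmp14, a membrane-bound collagenase, had 70.5, 29.8 and 99.6 CPM in LPS microglia, against 11.2, 5.38 and 2.90 CPM in H2O microglia. It stood at 207, 238, 194 and 210.1 CPM in LPS astrocytes, against 247, 280.1, 287 and 242 CPM in H2O astrocytes, with a difference of 3.96 ± 0.63 (adjusted p = 0.0022). Sparc, a matricellular protein, had 23.05, 12.4 and 10.8 CPM in LPS microglia, against 179, 173 and 276 CPM in H2O microglia. Its levels were 2900.1, 3273, 3834 and 2922 CPM in LPS astrocytes, against 3733, 4346, 5470.3 and 4638 CPM in H2O astrocytes, with a difference of -2.99 ± 0.39 (adjusted p = 0.00070). Of 27 growth and neurotrophic factors, 3 differences were higher and 2 lower (with the replicate block, 7 differences lower). Vegfa, the vascular growth factor, had 33.5, 8.49 and 19.9 CPM in LPS microglia, against 2.14, 2.08 and 5.92 CPM in H2O microglia. The astrocyte levels were 24.5, 28.8, 29.1 and 39.3 CPM in LPS astrocytes, against 30.8, 37.0, 52.5 and 39.5 CPM in H2O astrocytes, with a difference of 3.29 ± 0.65 (adjusted p = 0.0076). Ereg, an epidermal growth factor receptor ligand, had 0.557, 0.470 and 8.61 CPM in LPS microglia, against 0, 0 and 0 CPM in H2O microglia, at least 131-fold higher over the group against a floor of 3 counts. The astrocyte change of Ereg was 2.07 ± 0.93 (adjusted p = 0.31, and 0.032 with the replicate block). Its fitted difference of 8.15 ± 2.12 (adjusted p = 0.034) depends on the prior count, because H2O microglia were at 0, and is no bound; it was called without 5 of the 14 libraries and lost without the other 9. Bmp2, a bone morphogenetic protein, differed by -3.70 ± 0.79 (adjusted p = 0.011). Among 17 dual-specificity phosphatases and MAPK feedback genes, 4 differences were lower and 0 higher (with the replicate block, 1 difference higher), Spry2 with -2.74 ± 0.69 (adjusted p = 0.024), a call lost without LPS microglia replicate 1 (adjusted p = 0.052). Zfp36l1, which promotes mRNA decay, differed by -1.81 ± 0.53 (adjusted p = 0.044), kept without 4 of the 14 libraries and lost without the other 10. Its microglial change was -1.10 ± 0.40 (adjusted p = 0.057, and 0.0052 with the replicate block). Of 28 AP-1, EGR and stress factors, 2 differences were lower and 0 higher (with the replicate block, 1 difference higher and 6 lower), those of Nr4a2 at -2.57 ± 0.51 (adjusted p = 0.0076) and Klf4 at -2.39 ± 0.51 (adjusted p = 0.011). Klf4 changed by -0.65 ± 0.38 (adjusted p = 0.22, and 0.046 with the replicate block) in microglia and rose by 1.74 ± 0.34 in astrocytes, whereas Nr4a2 fell in microglia with no called change in astrocytes. In pattern recognition receptors and inflammasome genes 6 of 21 rose and 1 fell in microglia and 5 rose and 1 fell in astrocytes, and 0 differences were called by edgeR (with the replicate block, 14 rose in microglia, 8 rose in astrocytes, 3 fell in astrocytes and 5 differences higher and 1 lower).

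**Figure D4:**
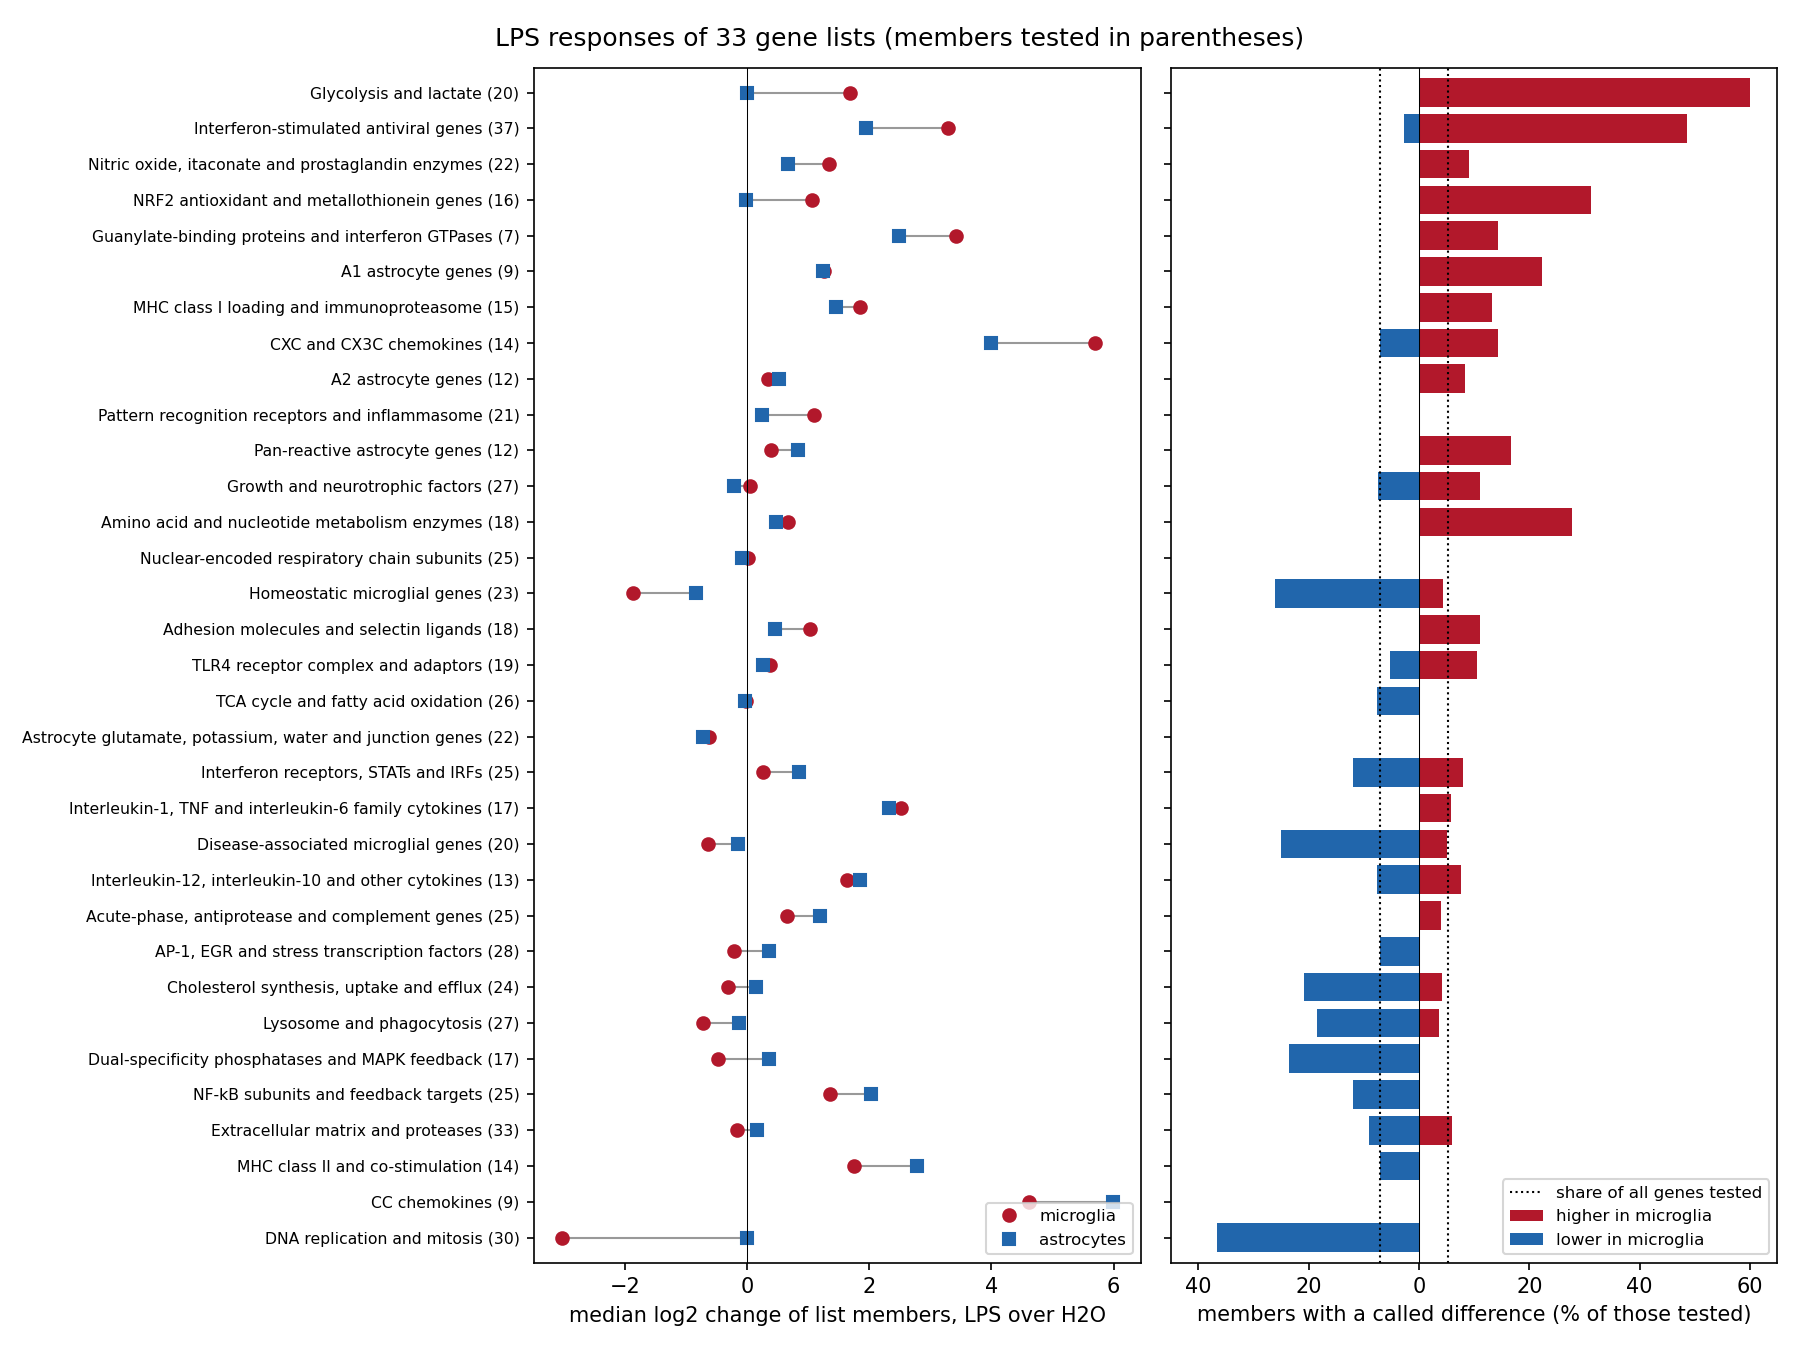
Gene lists in order of their median response difference, highest at the top; the left panel gives the median log2 change of LPS over H2O in microglia (circles) and astrocytes (squares), the right panel the percentage of members tested with a called response difference, higher in microglia (red) or lower (blue), with dotted lines at the share over all genes tested (5.32% and 7.14%). Glycolysis (12 of 20) and interferon-stimulated genes (18 of 37) had the longest red bars and DNA replication and mitosis (11 of 30) the longest blue bar.

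Both responses were called in the same direction and the difference lay within 0.3 of 0 in the 10 genes given here. At most the 2 closest such members of each list were kept, so 10 is not a count of all of them. Cd274, the immune checkpoint ligand PD-L1, rose by 2.09 ± 0.36 in microglia and 2.02 ± 0.33 in astrocytes, a difference of 0.08 ± 0.49 (adjusted p = 0.95). Ifngr2, a chain of the interferon gamma receptor, differed by -0.10 ± 0.25 (adjusted p = 0.85), and Traf2, an adaptor of TNF receptors, by -0.08 ± 0.20 (adjusted p = 0.85). Erap1, which trims peptides for MHC class I, differed by 0.04 ± 0.15 (adjusted p = 0.90), with rises of 0.52 ± 0.11 and 0.47 ± 0.10. Npc1, a lysosomal cholesterol transporter, changed by -0.55 ± 0.15 in microglia and -0.55 ± 0.13 in astrocytes, a difference of 0.002 ± 0.20 (adjusted p = 0.9999). The transcription factor gene Ddit3 differed by -0.19 ± 0.30 (adjusted p = 0.74) and the transporter gene Slc10a6 by 0.18 ± 0.30 (adjusted p = 0.76). Tnf, Oas2 and Psme1 are the other 3. The standard errors set how close the responses can be said to be: they ran from 0.15 for Erap1 to 0.96 for Tnf on the log2 scale.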

How the data were processed

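RNA was sequenced from 150 ng of total RNA per sample with an mRNA-capture library kit, per the labels' protocols. Per the submitters' processing notes the tools were HISAT2 and StringTie 1.3.3b and the genome build mRatBN7.2; the annotation, the strand setting and the counting step are not stated in them. The deposited values are raw read counts per gene, as the authors left them, in tables of 23139 genes for microglia and 20056 for astrocytes. Of these, 15246 symbols stood in both and held 90.855% to 93.386% of each library's counts; 7893 stood in the microglial tables alone and 4810 in the astrocyte tables alone. In microglia 6023 genes were at 0 in all 6 libraries, and in astrocytes no gene was at 0 throughout. CPM were computed here from the deposited counts and library totals.

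The joined counts of 14 libraries were fitted with edgeR 4.0.16 (R 4.3.3; TMM factors, filterByExpr over the 4 groups, robust quasi-likelihood test, Benjamini-Hochberg adjustment over 13280 genes). SE is the log2 change divided by the square root of F. The common biological coefficient of variation was 38.013%. Alternatives used DESeq2 1.42.0 and limma 3.58.1. Floors and counting intervals cover counting error only. The fit was also run on simulated counts, with an outcome not reported here. Those counts were drawn without pairing of replicates, so that run cannot show how pairing affects the fit.

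Same-numbered LPS and H2O libraries deviated together from their group means in all 7 pairs (correlations 0.5016 to 0.6472), so the numbers were taken as pairing the samples in the blocked fit. The main fit did not use the numbers, so its errors, p-values and counts of calls ignore that pairing. LPS astrocytes replicate 2 was the 1 library that correlated best with an H2O library of another number. The blocked fit, with a coefficient of variation of 21.568%, is given where it changes a call of a gene or moves a count over a list by more than 1.5 times.

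Named genes were the largest called differences in each class of joint response (groups not overlapping, 10 CPM or more on average in the highest group and, where only 1 response was called, 5 CPM or more with H2O in the cell types compared), a panel of 30 LPS genes, and the extreme and the closest members of 33 gene lists. Some genes that met the rule are not reported here. Members and lists were chosen with earlier results of these data known. Promoter windows came from RefSeq (GRCr8), whose build differs from that of the counts, so they were matched by symbol.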

Additional observations from a re-analysis of the deposited data

Results flagged for a closer look

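The LPS response differed between microglia and astrocytes in 1655 genes by the test of the difference itself, and the named genes among them are flagged for that reason. Values below are differences of log2 responses, microglia minus astrocytes, with errors and tests beside the genes above, grouped by calls of the fit without the replicate block. Those of Ereg and Col4a5 rest on a group at 0 counts, depend on the prior count and are no bound. Where both cell types rose, the response differences were Cxcl10 6.04, Apol9a 5.63, Cxcl11 5.14, Cmpk2 4.73, Rsad2 4.45, Tmprss2 4.42 and Tnfsf10 4.19. The next values of this kind were Nlrc5 2.23, Tap1 1.53, Gbp2 1.35, Tbk1 0.49 and Cxcl16 -2.26. Where genes rose in microglia and fell in astrocytes, the response differences were Vwa1 6.93, Anks1a 2.28 and Lxn 1.49. Where genes fell in microglia and rose in astrocytes, the response differences were Sik1 -2.61, Kirrel1 -2.93, Csf1 -3.03, Xylt1 -3.07, Abcb4 -3.19 and St6gal1 -3.90. Where genes rose in microglia and were not called in astrocytes, the response differences were Adra2a 9.46, Upp1 8.31, Ereg 8.15, Chadl 7.22, Sntb1 6.88, Slc7a2 6.17 and Socs3 6.01. The next values of this kind were Adamts4 5.26, Mt2A 4.99, Oas3 4.79, Slc2a1 4.49, Mmp14 3.96, Ptgs2 3.88 and C1r 3.60. These were followed by Il7 3.31, Vegfa 3.29, Slc16a3 2.92, Osmr 2.90, Itga5 2.52, Socs1 2.37 and Nr1h3 2.004. Lower again were Me1 1.97, Ggta1 1.68, Ctsl 1.34 and Tirap 0.90. Where genes were not called in microglia and rose in astrocytes, the response differences were Ly96 -1.02, Relb -1.87, Tnfaip3 -2.21, Klf4 -2.39, Dennd3 -2.83, Rab20 -3.24 and Enpp2 -5.20. The next values of this kind were Cd83 -5.31 and Cd74 -5.80. Where both cell types fell, the response differences were F5 -1.89, Tyro3 -2.003, Igf1 -2.45 and Col4a5 -4.62. Where genes fell in microglia and were not called in astrocytes, the response differences were Acadl -0.64, Cpt2 -0.90, Msmo1 -0.91, Sc5d -1.12, Hexa -1.75, Nr4a2 -2.57 and Socs2 -2.70. The next values of this kind were Spry2 -2.74, Sparc -2.99, Pros1 -3.40, Bmp2 -3.70, Plau -4.06, Cd9 -4.23 and Ube2c -4.58. These were followed by Mki67 -4.69, Rasgrp3 -5.03, Irf4 -5.24, Slc15a2 -5.46, Ifitm1 -5.56, Plxdc2 -5.61 and Dhrs9 -7.58. Where genes were not called in microglia and fell in astrocytes, the response differences were Myo7a 1.59, S100a4 1.15, Gab1 0.91 and Cerk 0.91. Where neither response was called, the response differences were Zfp36l1 -1.81. With the replicate block the microglial fall of Zfp36l1 was called.

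One library stood apart from the other 3 of its group in 16 of 232 groups of 4 astrocyte libraries examined, by Dixon's ratio of its gap to the range; chance flags about 1 in 20 groups. In LPS astrocytes replicate 1 it was Arg1 at 1.68 CPM. In H2O astrocytes replicate 4 these were Cd83 at 11.01 CPM, Cxcl1 at 173 CPM, Cxcl10 at 37.4 CPM, Cxcl11 at 1.78 CPM, Dennd3 at 25.6 CPM, Lcn2 at 53.2 CPM, Mt2A at 2138 CPM, Nr1h3 at 22.9 CPM and St6gal1 at 10.6 CPM. In LPS astrocytes replicate 3 these were Il12b at 7.06 CPM, Rasgrp3 at 6.16 CPM and summed neurons markers at 483 CPM. In H2O astrocytes replicate 1 it was Klf4 at 3.19 CPM. In LPS astrocytes replicate 4 it was Mt2A at 1566 CPM. In H2O astrocytes replicate 3 it was summed ependymal cells and choroid plexus markers at 56.0 CPM. The groups of 3 microglial libraries are too small for this rule.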

How the results depend on the processing

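The count of genes with a called response difference was 1671 with RLE scaling, 1278 with limma voom, 1548 without the low-count filter and 1813 for genes averaging 1 CPM or more in both cell types, all within 1.5 times 1655. It was 2719 with DESeq2, 3029 with the replicate block, 2756 with all 28 libraries in 1 fit and 557 with astrocyte replicates 3 and 4 alone. Of the 1655 genes, 1635 were called in the same direction with DESeq2, 1604 with the block and 1460 with RLE scaling. The astrocyte count moved most: 1135 with DESeq2, 1459 with the block, 996 with 28 libraries, 785 with astrocytes fitted alone, 956 without both microglial replicate 3 libraries, 83 with replicates 1 and 2 alone and 233 with replicates 3 and 4 alone. Leaving out each library in turn gave 1104 to 1820 genes for the difference, 3177 to 4059 for microglia and 133 to 674 for astrocytes, with 133 without H2O astrocytes replicate 3, 286 and 284 without LPS astrocytes replicate 3 and 4, and 300 and 270 without H2O astrocytes replicate 1 and 2. Of 110 genes chosen by the rule 88 were called, 57 of them without each library in turn. The replicate block changed no call of a named gene beyond those given beside their values.

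The differences that turned sign were not called in either fit. With DESeq2, Il10 was at 0.40. With limma voom, Il10 was at 2.43, Sod2 at 0.39 and Il12b at 0.59, and with the block Il10 was at 0.032 and Sod2 at 0.38. Without both microglial replicate 3 libraries, Ccl2 was at -0.43 and Gfap at -1.78. With astrocyte replicates 1 and 2 alone, Tlr4 was at 0.34, Tnf at 0.080, Il1a at 0.59, Ccl5 at 0.37, Il12b at 0.11 and Sod2 at 1.55, and with replicates 3 and 4 alone Csf3 was at -1.41. Leaving out 1 library turned Tnf (-1.53 to 0.20), Il1a (-3.92 to 0.18), Csf3 (-2.17 to 5.48), Ccl2 (-0.16 to 1.74), Gfap (-2.32 to 2.60), Il10 (-0.77 to 0.75), Tlr4 (-0.68 to 0.064) and Sod2 (-0.78 to 0.32). The cause was not tested in any of these. The exact test of the summed markers cannot go below 0.1 for 3 against 3 libraries or 0.0286 for 4 against 4.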
